A study of Mus musculus with 6 samples.

Results

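The 9 genes described here encode enzymes that cut the extracellular matrix and the inhibitors that hold them in check: the matrix metalloproteinases Mmp2, Mmp3 and Mmp14, the ADAMTS proteases Adamts1 and Adamts5, and the tissue inhibitors of metalloproteinases Timp1, Timp2, Timp3 and Timp4. They were chosen by name, with earlier results of these data known. Their probe sets are those that the platform annotation ties to exactly 1 of these symbols. The table names 18194 genes, and 12386 of them came up to the median of all its values (6.55 on the log2 scale) on at least 1 array, which was taken as the detection level. All 9 genes reached it, through 20 of their 24 probe sets, and 8 reached it on all 6 arrays. Where a gene has several probe sets, the one with the largest average value stands for it and the others serve as a check.

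The cells were 3T3-L1, a mouse preadipocyte line that becomes fat cells in culture after hormonal induction, and every group carried the labelled cell type adipocytes. Treatment started after induction and lasted 5 days in medium with insulin. The groups of the first experiment received ethanol (0.1%) as vehicle, ritonavir (20 µM), an HIV protease inhibitor, or tenofovir (1 µM), a nucleotide inhibitor of reverse transcriptase. Those of the second received ritonavir (20 µM) with DMSO (0.1%), with c9,t11-CLA (100 µM) or with t10,c12-CLA (100 µM), 2 isomers of conjugated linoleic acid that differ in the position and the cis or trans order of their double bonds. RNA from 4 replicate experiments was pooled onto 1 array per group. No spread between replicates can therefore be given, no difference was tested, and "higher" or "lower" is said of single arrays.

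Metalloproteinases are made as inactive precursors and cut collagens, gelatins, proteoglycans and cell surface proteins once a propeptide is removed. MMP14 sits in the cell membrane, cleaves fibrillar collagen and activates the precursor of MMP2, a gelatinase, in a complex that needs TIMP2. MMP3, or stromelysin 1, cuts many matrix proteins and activates other metalloproteinases, and ADAMTS1 and ADAMTS5 cut the large proteoglycans aggrecan and versican. TIMPs bind the active site of these enzymes. TIMP3 differs from the others in that it is held in the matrix and also inhibits ADAMTS proteases, and TIMP4 has a narrower tissue range that includes fat. In adipose tissue MMP14 is needed for fat cells to grow in a collagen-rich matrix.

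The promoters of 4 members are shown because these genes carry the differences described next: Mmp3 with its low level outside the ritonavir array, Timp1 and Timp2, which were higher with t10,c12-CLA, and Timp4, which was lower on every ritonavir array. Each window runs from 250 bases before to 50 bases after the RefSeq gene start in GRCm38.p6, read 5′ to 3′ on the gene's strand. The windows are chr9:7445572-7445871 on the plus strand, chrX:20869916-20870215 on the plus strand, chr11:118355362-118355661 on the minus strand and chr6:115252156-115252455 on the minus strand. Capitals mark matches on either strand to an AP-1 site (TGANTCA), a C/EBP site (TTGCNNAA), a TATA box (TATAAA) or a GC box (GGGCGG), and no 2 matches overlap in these 4 windows.
Mmp3: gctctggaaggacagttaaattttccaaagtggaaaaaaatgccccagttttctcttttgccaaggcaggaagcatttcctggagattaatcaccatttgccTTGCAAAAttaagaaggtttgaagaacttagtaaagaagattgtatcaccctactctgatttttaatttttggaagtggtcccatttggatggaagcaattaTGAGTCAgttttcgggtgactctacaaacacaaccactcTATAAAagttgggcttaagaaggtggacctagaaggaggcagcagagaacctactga
Timp1: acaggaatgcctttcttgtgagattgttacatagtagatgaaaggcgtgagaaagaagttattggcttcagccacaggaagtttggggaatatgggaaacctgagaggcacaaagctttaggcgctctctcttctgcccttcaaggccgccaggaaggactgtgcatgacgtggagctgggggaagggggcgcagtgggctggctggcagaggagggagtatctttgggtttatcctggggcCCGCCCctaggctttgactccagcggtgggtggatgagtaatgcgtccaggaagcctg
Timp2: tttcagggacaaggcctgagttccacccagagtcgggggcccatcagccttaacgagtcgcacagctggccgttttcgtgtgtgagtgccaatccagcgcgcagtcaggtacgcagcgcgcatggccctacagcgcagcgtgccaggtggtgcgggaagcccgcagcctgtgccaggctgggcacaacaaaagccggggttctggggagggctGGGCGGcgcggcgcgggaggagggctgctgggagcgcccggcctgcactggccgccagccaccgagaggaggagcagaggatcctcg
Timp4: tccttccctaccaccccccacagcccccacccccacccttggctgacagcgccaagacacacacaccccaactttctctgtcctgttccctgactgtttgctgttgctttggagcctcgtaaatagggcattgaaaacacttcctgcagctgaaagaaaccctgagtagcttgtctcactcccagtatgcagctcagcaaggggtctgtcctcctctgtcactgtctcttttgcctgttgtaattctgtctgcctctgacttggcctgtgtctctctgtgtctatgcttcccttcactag

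Promoter windows were found for 7 of the 9 genes, not for Mmp2 and Adamts5. The AP-1 letters were in 1 of the 7, that of Mmp3, where TGAGTCA begins at position -46, counted from -1 at the base before the start. Of 32851 mouse windows of the same length 7.81% hold them. The C/EBP letters were again in the Mmp3 window alone, as TTGCAAAA from position -148, against 10.8% of all windows. TATAAA was in the Mmp3 and Adamts1 windows, against 13.6% of all, and the GC box in 5 of 7, those of Mmp14, Adamts1, Timp1, Timp2 and Timp3, against 35.7%. The Timp4 window held none of these letters. These matches describe letters in a window and say nothing of whether a factor binds there.

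Before the results, the arrays themselves: values on a log2 scale after RMA, a method that gives all arrays the same distribution, had medians between 6.54 and 6.56. The tenofovir and ethanol arrays correlated at 0.998 over all probe sets, and the ritonavir and ethanol arrays at 0.973. The fat cell label was checked with 12 marker genes, of which 10 had a named probe set and all 10 reached the detection level on the ethanol array. The summed linear values of these markers were 125282 with ethanol, 128793 with tenofovir, 20261 with ritonavir, 80331 with ritonavir and DMSO, 85092 with c9,t11-CLA and 42260 with t10,c12-CLA. The summed values of 9 preadipocyte and fibroblast markers were 30430, 28325, 60892, 17439, 18625 and 23832 in the same order. Such a sum is weighted to high values, such as Acta2 at 14.39 on the log2 scale with ritonavir. These markers did not move as one. Ritonavir differed from ethanol by 3.77 for Tagln, 2.54 for Acta2, 1.67 for Thy1, 1.42 for Pdgfrb and 0.89 for Col1a1. The differences were 0.09 for Postn, -0.07 for Pdgfra and -0.11 for Dlk1, and Cd34 was not detected. These marker levels move with several results below, and their part in them was not tested. In pooled RNA, fewer cells of a type and less RNA per cell cannot be told apart.

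Whether ritonavir alters the matrix protease system was asked first against ethanol. All 5 protease genes were at least 2-fold higher on the ritonavir array, and the inhibitors split: Timp2 was 3.62-fold and Timp1 1.86-fold higher, Timp3 was 1.42-fold lower and Timp4 6.80-fold lower. In all, 6 of 9 members were at least 2-fold higher (5 with values so raised), where 4.56% of all detected genes were. At least 2-fold lower was 1 of 9, where 6.39% were. The median log2 difference of the members was 1.23 (1.11 with values so raised), and that of all detected genes was 0.00. Since the members were chosen with earlier results of these data known, these shares describe them and are no test of them. Over the same pair of arrays, the markers of fat cells had a median difference of -4.03 and those of preadipocytes and fibroblasts one of 1.15.

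**Figure D1:**
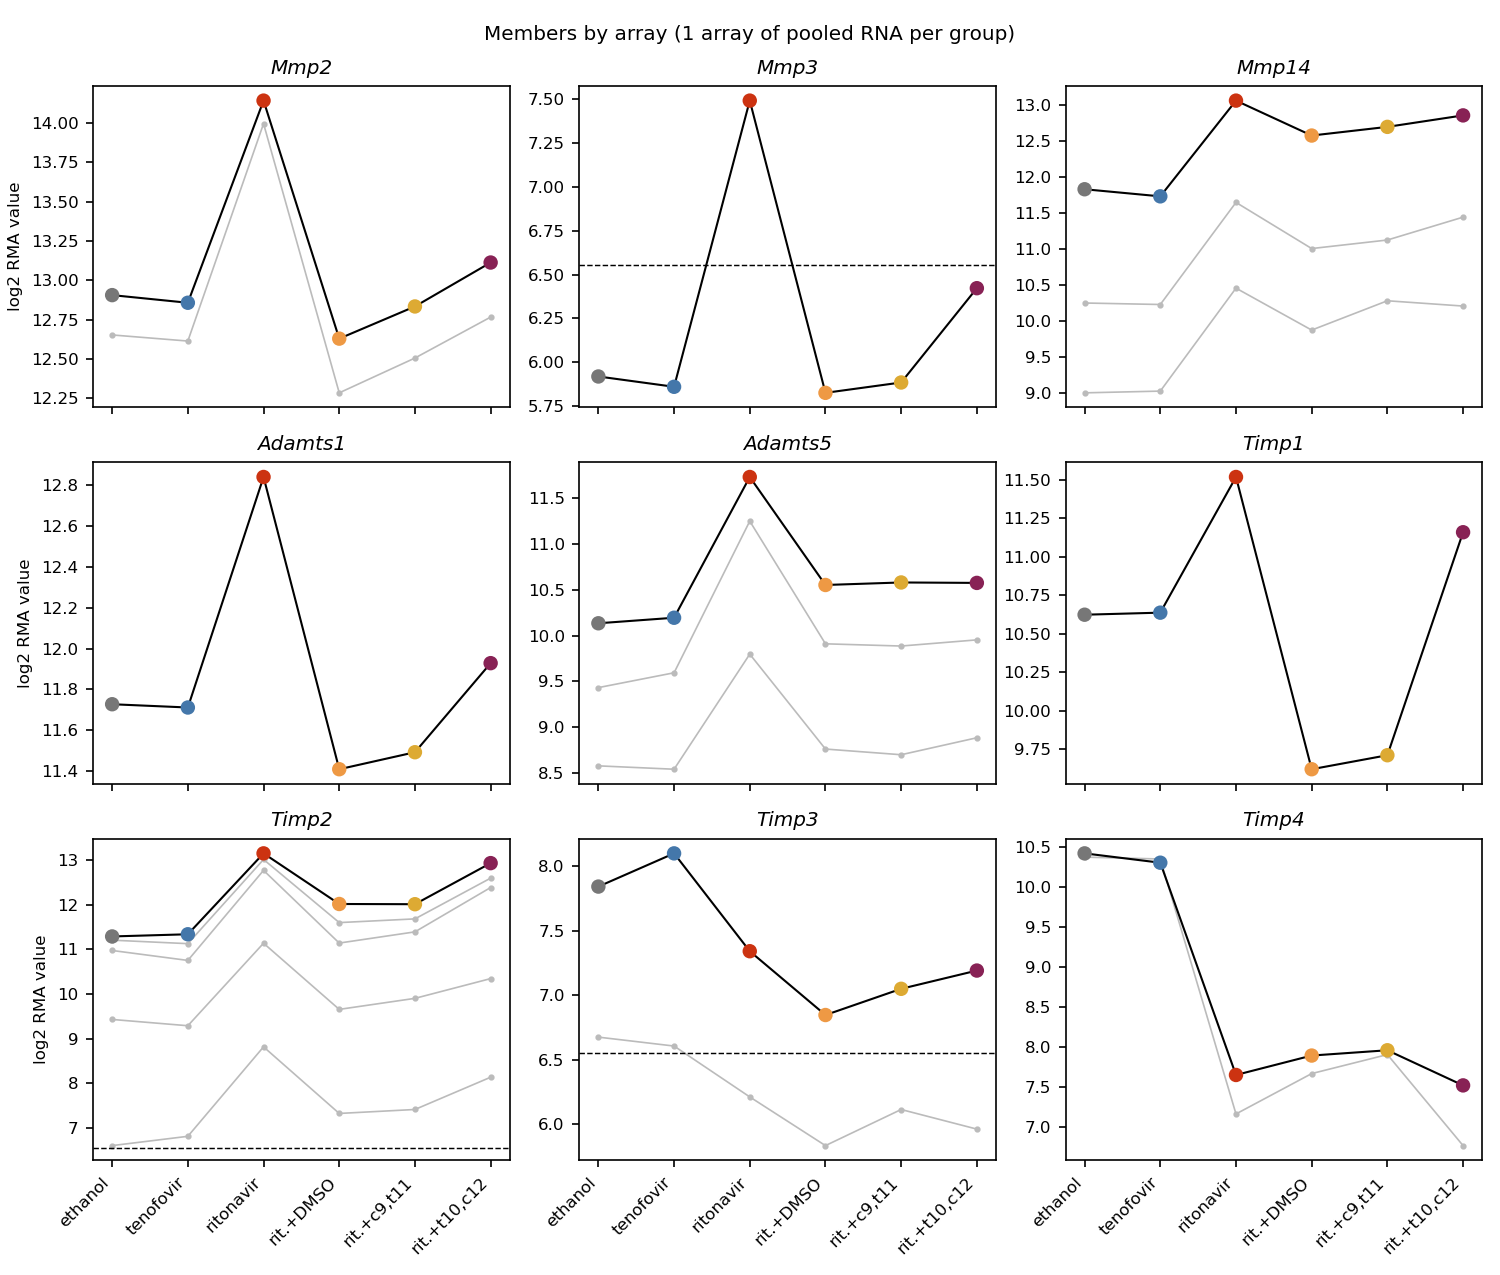
Log2 RMA value (y axis, scaled per gene) of each member on the 6 arrays (x axis, 1 array per group, lines only guide the eye). Coloured points are the probe set that stands for the gene, grey lines the other detected probe sets and dashed lines the detection level of 6.55. Mmp2, Mmp3, Mmp14, Adamts1, Adamts5, Timp1 and Timp2 peak with ritonavir, and Timp4 lies between 7.52 and 7.96 on all 4 ritonavir arrays.

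Mmp2, the gelatinase gene (probe set 1416136_at), had log2 values of 12.91 with ethanol, 12.86 with tenofovir, 14.14 with ritonavir, 12.63 with ritonavir and DMSO, 12.83 with c9,t11-CLA and 13.11 with t10,c12-CLA. The ritonavir array stood alone at the top, and the other 5 lay between 12.63 with ritonavir and DMSO and 13.11 with t10,c12-CLA. Ritonavir exceeded ethanol by 1.24, or 2.36-fold, and the second probe set of the gene gave 1.34. Mmp2 values lie near the upper end of the scale, where array signals can be compressed.

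Mmp14, the membrane-bound collagenase (probe set 1448383_at), had values of 11.83 with ethanol, 11.73 with tenofovir, 13.06 with ritonavir, 12.58 with ritonavir and DMSO, 12.70 with c9,t11-CLA and 12.85 with t10,c12-CLA. In contrast to Mmp2, all 4 ritonavir arrays lay above both others. The difference between ritonavir and ethanol was 1.23, and the 3 probe sets of the gene ranged from 1.23 to 1.45.

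Mmp3, the stromelysin whose promoter holds the AP-1 letters above (probe set 1418945_at), had values of 5.92 with ethanol, 5.86 with tenofovir, 7.49 with ritonavir, 5.83 with ritonavir and DMSO, 5.89 with c9,t11-CLA and 6.42 with t10,c12-CLA. Only the ritonavir array reached the detection level, so Mmp3 was detected through that array alone, and the order of its other 5 values is not relied on. Its difference from ethanol was 1.57, which becomes 0.94 when values under the level are raised to it. With values so raised, 5 rather than 6 members were at least 2-fold higher.

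Adamts1 (probe set 1450716_at) had values of 11.73 with ethanol, 11.71 with tenofovir, 12.84 with ritonavir, 11.41 with ritonavir and DMSO, 11.49 with c9,t11-CLA and 11.93 with t10,c12-CLA. Its order over the arrays matched that of Mmp2, with ritonavir first, t10,c12-CLA second and ritonavir with DMSO last. Ritonavir exceeded ethanol by 1.11, or 2.16-fold.

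Adamts5 (probe set 1422561_at), the aggrecanase whose gene lies next to Adamts1 with 0 protein-coding genes between them, had values of 10.14 with ethanol, 10.20 with tenofovir, 11.73 with ritonavir, 10.55 with ritonavir and DMSO, 10.58 with c9,t11-CLA and 10.58 with t10,c12-CLA. The 3 arrays of the second experiment were nearly equal and lay between the ritonavir array and the 2 arrays without ritonavir. Ritonavir exceeded ethanol by 1.60, or 3.03-fold, and 3 detected probe sets ranged from 1.22 to 1.82.

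Timp1 (probe set 1460227_at), a secreted inhibitor of most metalloproteinases, had values of 10.62 with ethanol, 10.64 with tenofovir, 11.52 with ritonavir, 9.62 with ritonavir and DMSO, 9.71 with c9,t11-CLA and 11.16 with t10,c12-CLA. Its ritonavir arrays lay on both sides of the arrays without the drug: ritonavir alone differed from ethanol by 0.89 and ritonavir with DMSO by -1.003. This span of 1.90 is measured by 1 probe set.

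Timp2 (probe set 1460287_at), the inhibitor that also takes part in MMP2 activation, had values of 11.29 with ethanol, 11.34 with tenofovir, 13.15 with ritonavir, 12.01 with ritonavir and DMSO, 12.01 with c9,t11-CLA and 12.93 with t10,c12-CLA. The 4 ritonavir arrays lay above both others, with ritonavir alone and t10,c12-CLA well above the other two. Ritonavir exceeded ethanol by 1.86, and 5 detected probe sets gave 1.70 to 2.21. A difference this large or larger in the same direction was seen in 0.824% of the detected genes.

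Timp3 (probe set 1449335_at), the matrix-bound inhibitor, had values of 7.84 with ethanol, 8.10 with tenofovir, 7.34 with ritonavir, 6.85 with ritonavir and DMSO, 7.05 with c9,t11-CLA and 7.19 with t10,c12-CLA. All 4 ritonavir arrays lay below both others. The gene sits close to the detection level, and 2 of its 4 probe sets stayed under it on every array. Ritonavir was 0.50 below ethanol, and the second detected probe set gave -0.46.

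Timp4 (probe set 1450974_at), the inhibitor with the narrower tissue range, had values of 10.42 with ethanol, 10.30 with tenofovir, 7.65 with ritonavir, 7.89 with ritonavir and DMSO, 7.96 with c9,t11-CLA and 7.52 with t10,c12-CLA. The 4 ritonavir arrays formed a low group 2.34 or more below the 2 others. The log2 difference of ritonavir from ethanol was -2.77, the second probe set gave -3.21, and 0.864% of detected genes differed as far downward.

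**Figure D2:**
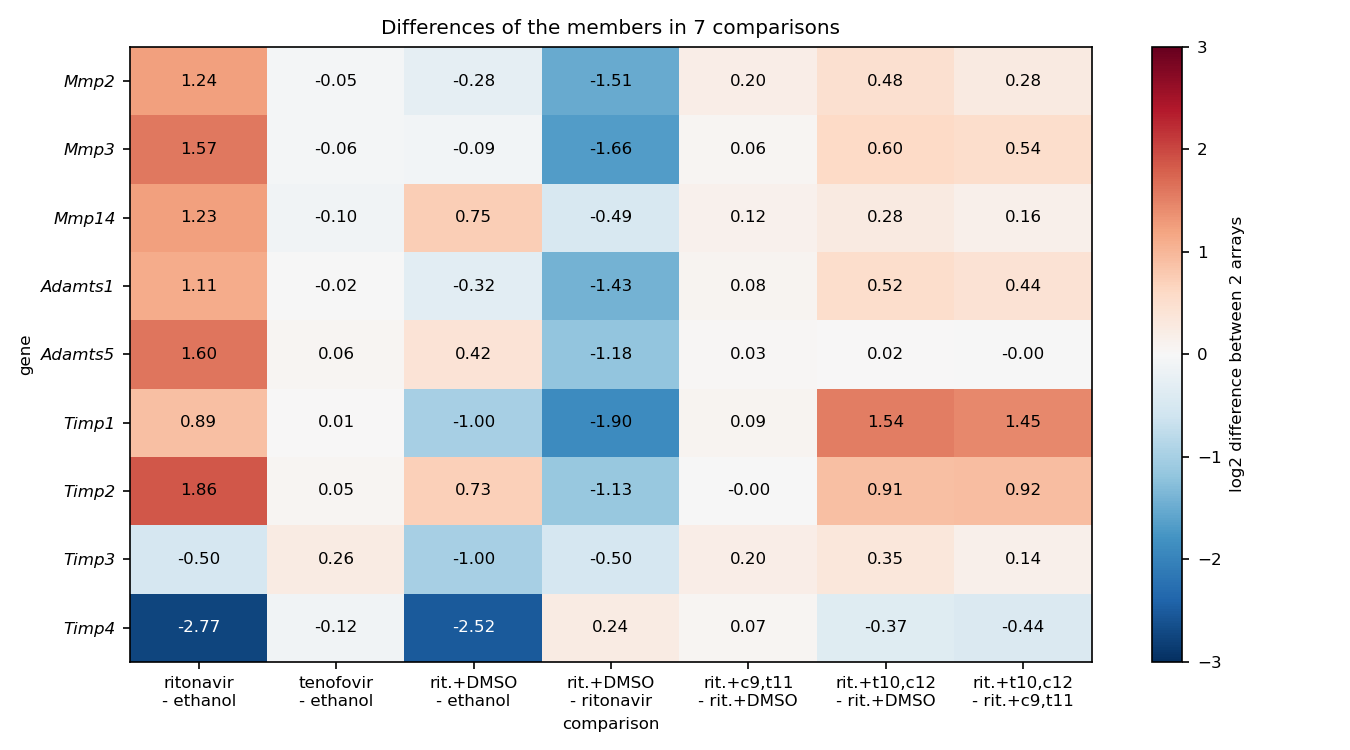
Log2 difference of each member (rows) in 7 comparisons of 2 arrays (columns), with the value in each cell and colour from blue (lower) to red (higher). Timp4 is the lowest cell against ethanol on both ritonavir arrays (-2.77 and -2.52), and the tenofovir and c9,t11-CLA columns stay within 0.26 of 0.

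Across the members, 3 (Mmp14, Adamts5 and Timp2) had all 4 ritonavir arrays above both arrays without ritonavir, a pattern found in 28.6% of detected genes. Timp3 and Timp4 had all 4 below, as did 22.6% of detected genes. The remaining 4, Mmp2, Mmp3, Adamts1 and Timp1, overlapped. These shares are near the background, the 4 arrays also differ in vehicle, fatty acid and experiment, and nothing particular to the members is read from the count.

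Tenofovir was compared with ethanol to ask whether a second class of antiretroviral drug alters the cells. None of the members was 2-fold apart: 0 of 9 were higher and 0 lower, beside 0.0% of all detected genes in each direction. The differences ran from -0.12 for Timp4 to 0.26 for Timp3, with a median of -0.02 against -0.01 over all detected genes. The second detected probe set of Timp3 gave -0.07, so its sign was not shared between probe sets. The robust SD of all gene differences between these 2 arrays was 0.113, and Timp3 and Timp4 alone among the members exceeded it.

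The array of ritonavir with DMSO, the control of the second experiment, was then set against the same ethanol array. It shared the low Timp4 of the ritonavir array, with a difference of -2.52 from ethanol, which is 5.75-fold. The high Mmp2, Mmp3 and Adamts1 of that array were not shared. Mmp14 and Adamts5 stayed above ethanol, by less than with ritonavir alone. Mmp2, Mmp3 and Adamts1 lay at -0.28, -0.09 and -0.32 from ethanol, while Mmp14 was 0.75, Timp2 0.73 and Adamts5 0.42 higher. Timp1 lay at -1.003 and Timp3 at -0.997. Here 0 of 9 members were at least 2-fold higher, beside 1.52% of all detected genes, and 2 of 9, Timp1 and Timp4, were at least 2-fold lower, beside 2.99%. The value of Timp1 is just past the 2-fold threshold and that of Timp3 just short of it.

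With DMSO the fat cell markers were closer to ethanol than on the ritonavir array, with a median of -1.06 in place of -4.03. Still, 6 of 10 were at least 2-fold lower (5 with values raised to the detection level), among them Car3 at -2.68, Retn at -2.15 and Slc2a4 at -1.66. The rest were less than 2-fold apart: Fabp4 at 0.03, Adipoq at -0.16, Cebpa at -0.69 and Lipe at -0.89. Timp4 lay at -2.52 there and at -2.77 with ritonavir alone. The preadipocyte and fibroblast markers had a median of -0.65 in place of 1.15. Both comparisons subtract the same ethanol array. For Timp2 the size on the array with DMSO depended on the probe set, and its 5 detected probe sets ranged from 0.17 to 0.73.

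**Figure D3:**
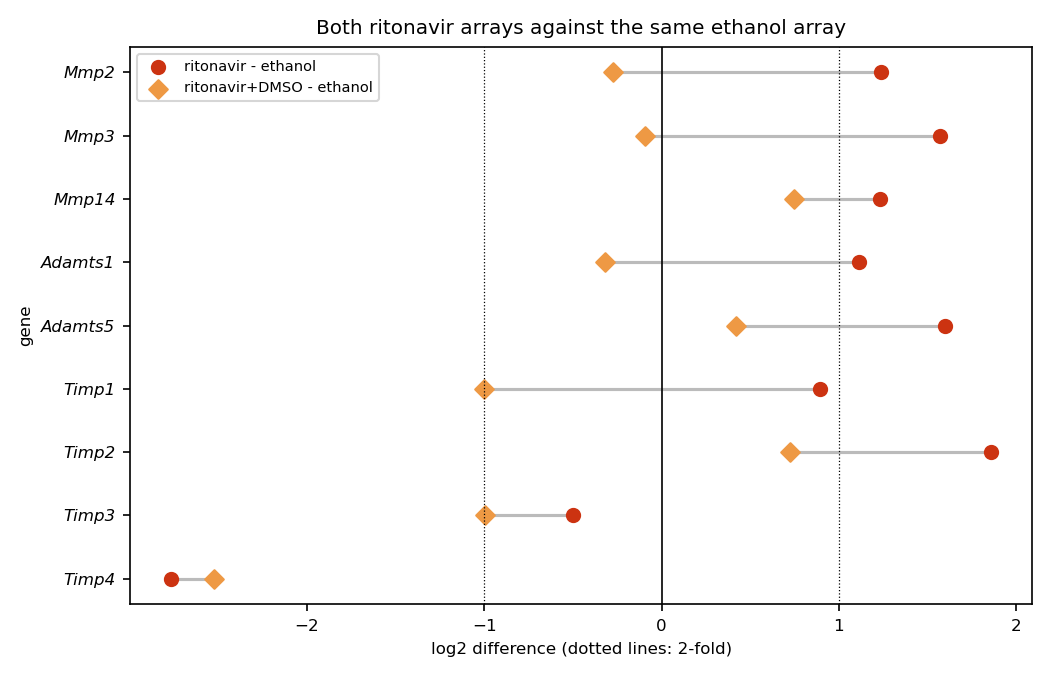
Log2 difference from the same ethanol array (x axis) of each member (y axis), for ritonavir alone (circles) and ritonavir with DMSO (diamonds). Timp4 has both points below -2.5, whereas Mmp2, Adamts1 and Timp1 have points on opposite sides of 0. The diamond of Mmp3 compares 2 values under the detection level.

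Set directly against the ritonavir array, 6 of 9 members were at least 2-fold lower with ritonavir and DMSO, beside 2.07% of all detected genes, and 0 were at least 2-fold higher, beside 2.83%. Timp1 showed the widest difference at -1.90, or 3.73-fold, followed by Mmp3 at -1.66, Mmp2 at -1.51, Adamts1 at -1.43, Adamts5 at -1.18 and Timp2 at -1.13. With DMSO Mmp3 was not detected, and with its value raised to the detection level it differed by -0.94. With values so raised, 5 members were at least 2-fold lower and the members' median was -1.13. Mmp14 and Timp3 were 1.40-fold and 1.41-fold lower, and Timp4 was 1.18-fold higher. The median of the members was -1.18, against 0.01 for all detected genes. Vehicle and experiment cannot be told apart in this comparison, since DMSO was labelled in the second experiment only.

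The second experiment asked how the isomers of conjugated linoleic acid act in cells under ritonavir. With c9,t11-CLA the members lay within 0.21 of the array with DMSO, from -0.0048 for Timp2 to 0.20 for Mmp2 and Timp3. Other detected probe sets widened this. The range was 0.12 to 0.41 for Mmp14, -0.0048 to 0.25 for Timp2 and -0.06 to 0.03 for Adamts5. None was 2-fold apart, with 0 of 9 higher beside 0.0% and 0 of 9 lower beside 0.00807% of all detected genes. The median was 0.08, and the robust SD of all gene differences between these arrays was 0.136. A difference of the size of Mmp2's or more was found upward in 9.11% of detected genes.

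With t10,c12-CLA, at the same 100 µM, the inhibitors Timp1 and Timp2 stood out. Timp1 was 1.54 above the array with DMSO, or 2.91-fold, and 0.21% of detected genes were as far or further up. Timp2 was 0.91 higher, or 1.88-fold, with 5 detected probe sets between 0.69 and 1.24. Mmp3 was 0.60 higher but under the detection level on both arrays, so its difference is not relied on. Adamts1 was 0.52, Mmp2 0.48, Timp3 0.35 and Mmp14 0.28 higher, and Adamts5 differed by 0.02. Timp4 lay at -0.37 with one probe set and at -0.90 with the other.

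In that comparison 1 of 9 members was at least 2-fold higher, beside 0.783% of all detected genes, and 0 of 9 lower, beside 1.05%. The members' median was 0.48 (0.35 with values raised to the detection level), against 0.02 for all detected genes. Over the same arrays the median difference of fat cell markers was -1.32, and 0.46 was that of preadipocyte and fibroblast markers. Of 7 macrophage markers 4 were detected, with Cd68 at 1.67, Cd14 at 0.43, Csf1r at 0.15 and Lyz2 at -0.22, and Adgre1, Ptprc and Itgam stayed under the detection level on all 6 arrays. DMSO is labelled for the control alone, so a difference in vehicle cannot be told apart from the fatty acid.

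**Figure D4:**
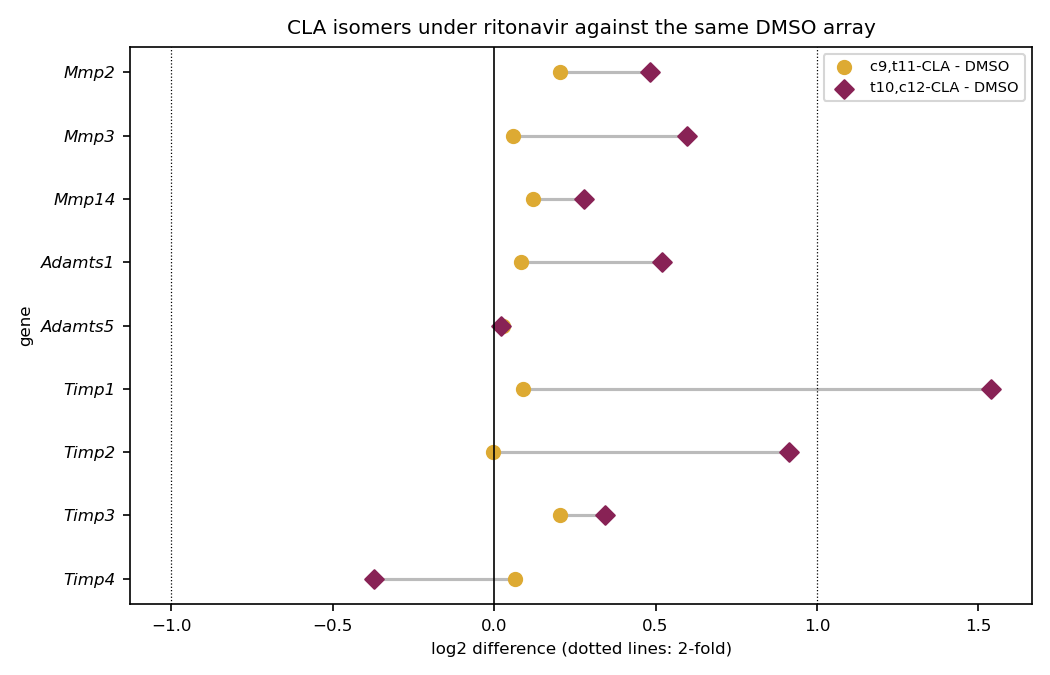
Log2 difference from the same array of ritonavir with DMSO (x axis) of each member (y axis), for c9,t11-CLA (circles) and t10,c12-CLA (diamonds). Timp1 (0.09 and 1.54) and Timp2 (-0.0048 and 0.91) show the widest gaps, and Adamts5 has both points near 0.

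Between the isomers, at matched dose and time, Timp1 was 1.45 higher with t10,c12-CLA than with c9,t11-CLA, or 2.73-fold, and Timp2 0.92 higher, or 1.89-fold. Adamts1 was 0.44 and Mmp2 0.28 higher, Mmp14 differed by 0.16, and Adamts5 by -0.0048. Timp4 lay at -0.44, and its second probe set at -1.14. At least 2-fold higher was 1 of 9 members, beside 0.953% of all detected genes, and at least 2-fold lower were 0 of 9, beside 1.53%. With 1 array per isomer no interval of these differences can be given. The arrays of these comparisons are shared, so the values of t10,c12-CLA against DMSO and against c9,t11-CLA are not separate evidence.

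Some members had nearly the same profile over the 6 arrays. After each gene was centred on its own mean, Mmp2 and Adamts1 were a root mean square distance of 0.07 apart on the log2 scale, the closest pair of members. Timp2 and Timp4 were the farthest apart, at 1.88. Among detected genes, with symbols of clone or accession type left out, Arhgef25 was nearest to Mmp2 at 0.06 and Dclk1 to Adamts1 at 0.04. Reck, which encodes a membrane-anchored inhibitor of metalloproteinases, was nearest to Mmp3 at 0.09. Since Mmp3 was under the detection level on 5 of 6 arrays, likeness to it rests mostly on values that are not relied on. Slc25a12 was nearest to Mmp14 at 0.06, Ccnt2 to Adamts5 at 0.06, Anpep to Timp2 at 0.07, Ltbp1 to Timp3 at 0.06, Thbs1 to Timp1 at 0.14 and Ndrg1 to Timp4 at 0.16. Over the detected genes so kept, the median distance from a member ran from 0.48 for Timp3 to 1.25 for Timp4. These distances over 6 arrays are a description of likeness, and with many genes compared some are small in any case.

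Next in rank were Dclk1 after Adamts1 itself for Mmp2, Snai2 and Zfp521 for Mmp3, Tmcc2 and Slc15a4 for Mmp14, and Selenom after Mmp2 for Adamts1. For Adamts5 they were Socs2 and Lrig3, for Timp1 Fhl2 and Rnase4, for Timp2 Flnc and Zc2hc1a, for Timp3 Fam102b and Dysf, and for Timp4 Apoc3 and Tgm2. Apoc3 lay under the detection level on 4 of 6 arrays and Tgm2 on 1.

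The rest of the family did not move as one with the members on the ritonavir array. The members were chosen with earlier results of these data known, so this contrast is a description only. Of 20 other matrix metalloproteinase genes 8 were detected. With ritonavir 3 of these exceeded ethanol by at least 2-fold and 0 lay that far below it, and their median was -0.03. Besides Mmp11 and Mmp13 this is Mmp23, at 1.09, which is named after its value was seen. With values raised to the detection level the count was 2, without Mmp13. Mmp11, or stromelysin 3, had values of 10.23 with ethanol, 10.14 with tenofovir, 11.62 with ritonavir, 11.58 with ritonavir and DMSO, 11.35 with c9,t11-CLA and 11.84 with t10,c12-CLA. It was thus about equally high on both ritonavir arrays, 1.39 and 1.35 above ethanol, unlike Mmp2 and Mmp3. Mmp13, a collagenase, had values of 5.09 with ethanol, 4.95 with tenofovir, 6.23 with ritonavir, 7.07 with ritonavir and DMSO, 6.70 with c9,t11-CLA and 8.32 with t10,c12-CLA. Its ritonavir and ethanol values both lay under the detection level, which the 3 arrays of the second experiment alone reached, and t10,c12-CLA was 1.25 above DMSO and 1.63 above c9,t11-CLA.

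Among 22 other ADAMTS and ADAMTS-like genes 12 were detected. With ritonavir 0 of these exceeded ethanol by 2-fold and 2 lay at least 2-fold below it, with a median of 0.02. Adamts9, a proteoglycan-cutting relative of Adamts1, differed by -1.80 and Adamts12 by -1.60, the opposite direction to Adamts1 and Adamts5. On the array of ritonavir with DMSO, Adamts9 lay at -1.41 and Adamts15 at -1.16 from ethanol, and again 0 of 12 were at least 2-fold higher and 2 lower. Of 7 ADAM genes, membrane proteases that shed cell surface proteins, 0 were at least 2-fold higher on the ritonavir array and 1 lower, Adam12 at -1.14.

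Genes that activate, inhibit or clear these proteases showed single large differences without a common direction. Of 15 listed, 12 were detected. On the ritonavir array 2 of these lay at least 2-fold above ethanol and 1 below it, with a median of -0.11. Plat, which encodes tissue plasminogen activator, had values of 7.10 with ethanol, 7.17 with tenofovir, 9.52 with ritonavir, 7.13 with ritonavir and DMSO, 7.27 with c9,t11-CLA and 8.53 with t10,c12-CLA. Its high arrays were those with ritonavir alone and with t10,c12-CLA. The same 2 arrays were the highest for Timp1, and also for Mmp2, Mmp14, Adamts1 and Timp2. Reck was 1.48 above ethanol with ritonavir and lay at -1.41 from ritonavir when DMSO was present. Plaur, the urokinase receptor, was 1.23 higher with t10,c12-CLA than with DMSO. Tfpi2 ended under the detection level with ritonavir, where its difference of -2.05 becomes -0.19 against that level. Pcolce2, a procollagen processing enhancer, lay at -1.19 from ethanol when ritonavir was given with DMSO.

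The list of matrix genes whose products these enzymes cut came next. All 23 listed were detected, and with ritonavir 0 lay at least 2-fold above ethanol and 0 below it, with a median of -0.07. With ritonavir and DMSO all 23 lay below ethanol, 3 by at least 2-fold, with a median of -0.43. Lum, which encodes the proteoglycan lumican, lay at -2.27 there, Col1a1, of type I collagen, at -1.31 and Dcn, the decorin gene, at -1.16. Against the ritonavir array, 5 of 23 were at least 2-fold lower with ritonavir and DMSO, Col1a1 at -2.20 and Dcn at -1.47 as well as Lum at -1.45, Vcan at -1.44 and Fn1 at -1.05. The last 3, and Dcn against ethanol, are named after their values were seen. With t10,c12-CLA 0 of 23 were 2-fold apart from DMSO in either direction.

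**Figure D5:**
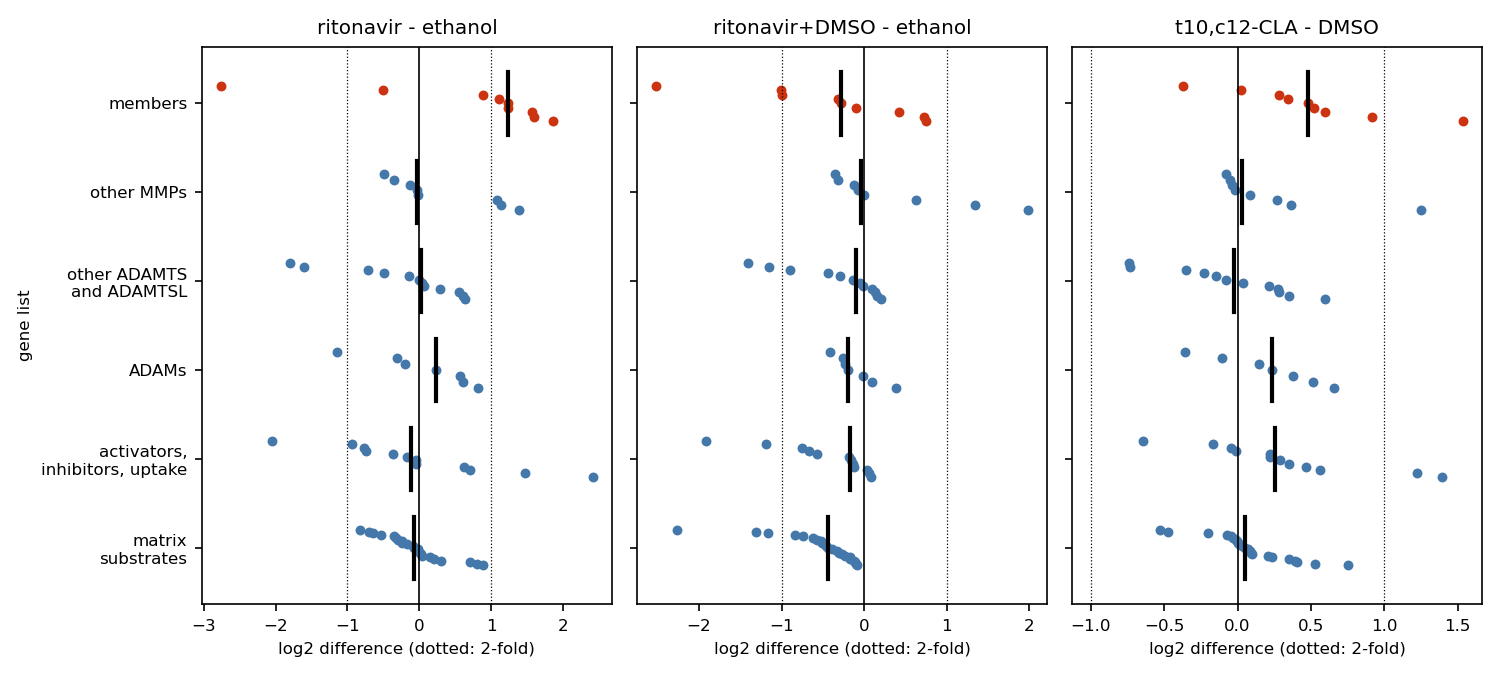
Log2 difference (x axis) of each detected gene (points) in 6 gene lists (y axis) for 3 comparisons, with black bars at the list medians and dotted lines at 2-fold. The members' median is 1.23 for ritonavir against ethanol, -0.28 for ritonavir with DMSO against ethanol and 0.48 for t10,c12-CLA against DMSO, while the medians of the other lists in the first panel lie between -0.11 and 0.23.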

How the data were processed

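RNA of 3T3-L1 cells was pooled from 4 replicate experiments per group and hybridised to 1 Affymetrix array for each group, as the labels' protocols state. The deposited values are log2 values of 45101 probe sets on 6 arrays, from 2.17 to 15.01. The authors made them with RMA in Affymetrix Expression Console, per the submitters' processing notes, which give no version or settings. RMA equalises the arrays' distributions, so a shift shared by most genes would be removed.

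Probe sets were named from the platform annotation, with symbols updated through gene identifiers: 34958 carry 1 symbol, 932 with several were left out, and 9211 are unnamed here. Log2 differences were computed for 7 comparisons, with 2-fold as the threshold and no test, since each group has 1 array, and that number limits the precision. The named genes are the 9 members and, from each pathway list, up to 2 higher and 2 lower by at least 2-fold per comparison. The 3 genes nearest in profile to each member whose values span at least 1 are named too. Symbols of clone or accession type were left out before this ranking. Markers of endothelial, muscle and epithelial cells were also listed, and 1 of 5, 2 of 4 and 3 of 4 were detected. A further list held 15 genes, of transcription factors and of the NF-κB inhibitor Nfkbia. Members and lists were chosen with earlier results of these data known. The counting step was tested on simulated data. Alternatives covered the probe set, the detection level, normalization and the threshold. Promoter sequences came from RefSeq (GRCm38.p6). Python 3.11.15, numpy 2.4.6, pandas 2.3.3, statsmodels 0.14.6 (lowess, span 0.3) and matplotlib 3.10.9 were used.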

Additional observations from a re-analysis of the deposited data

Results flagged for a closer look

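For 3 detected members, Mmp2, Adamts1 and Timp1, the 2 ritonavir arrays lay on opposite sides of the ethanol array. Mmp2 differed by 1.24 with ritonavir alone and by -0.28 with ritonavir and DMSO. Mmp3 differed by 1.57 and -0.0932, but the second is a difference of 2 values under the detection level, so its side of 0 is not relied on. Adamts1 differed by 1.11 and -0.32. Timp1 differed by 0.89 and -1.003. Each side is 1 array, the ethanol array is shared, and the difference between the sides was not tested.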

How the results depend on the processing

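The number of members at least 2-fold apart was within 1.5 times the reported one, in each of the 7 comparisons and both directions, under the mean of all probe sets, without suffixed probe sets, with values raised to the detection level, with quantile normalization applied again and with the lowess trend removed. With the probe set of second highest mean, 1 member in place of 0 was at least 2-fold lower with t10,c12-CLA than with c9,t11-CLA, which is Timp4. A threshold of 3-fold left 2 members higher for ritonavir against ethanol (Timp2 and Adamts5), 1 lower for ritonavir with DMSO against ethanol, 2 lower for ritonavir with DMSO against ritonavir (Timp1 and Mmp3), and 0 higher for t10,c12-CLA against DMSO and against c9,t11-CLA. A threshold of 1.5-fold gave 2 higher for ritonavir with DMSO against ethanol, 3 higher for t10,c12-CLA against DMSO (Timp1, Timp2 and Mmp3) and 2 higher for t10,c12-CLA against c9,t11-CLA. Mmp3 is counted there by values that are not relied on. Raised to the detection level, they gave 1.91-fold for ritonavir with DMSO against ritonavir and 1.0-fold for t10,c12-CLA against DMSO. Of 378 single member differences recomputed, 337 moved by less than the robust SD of 0.113 between the tenofovir and ethanol arrays and 41 by more, by at most 0.73, and 11 changed sign, 0 of which were at least 2-fold apart. Many of the 378 could not move. Leaving out suffixed probe sets changed 0 of 63, 3 members have 1 probe set, and only Mmp3 had values under the detection level. With the probe set of second highest mean, 21 of 63 moved by more than that SD. No paired analysis was possible because each group has 1 array, and no array could be left out for the same reason. Mmp3 and Timp3 lie close to the detection level, where signal over background limits their values most.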

Other observations

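Transcription factor genes whose products are known to act on metalloproteinase promoters were listed as well. The list also holds Nfkbia, which encodes an inhibitor of the factor NF-κB and not a transcription factor. Of 15, 12 were detected, and on the ritonavir array 1 was at least 2-fold higher than ethanol and 4 lower, with a median of -0.26. Fosl1, which encodes the AP-1 subunit FRA1, had values of 12.26 with ethanol, 12.11 with tenofovir, 7.89 with ritonavir, 9.60 with ritonavir and DMSO, 10.10 with c9,t11-CLA and 10.22 with t10,c12-CLA. The ritonavir array differed from ethanol by -1.46 for Fos, -1.28 for Jun and -1.23 for Nfkbia, and by 1.16 for Ets2. Jun and Nfkbia are named in this comparison after their values were seen. On the array of ritonavir with DMSO, Fosl1 lay at -2.66 and Jun at -1.12 from ethanol, with 0 of 12 at least 2-fold higher and 2 lower. With t10,c12-CLA against DMSO 0 of 12 were 2-fold apart in either direction.

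Most markers of cell types other than fat cells and fibroblasts were near or under the detection level, except the epithelial marker Epcam, which lay between 9.48 and 10.25, the muscle marker Des, between 8.02 and 9.15, and the macrophage markers Cd14 and Cd68. Cd14 lay between 7.80 and 9.24, and Cd68 ran from 6.75 with tenofovir to 10.10 with t10,c12-CLA. Between ritonavir and ethanol the detected endothelial marker, Kdr, differed by -0.25, and the median was -0.63 over 2 muscle markers, -0.63 over 3 epithelial markers and 0.06 over 4 macrophage markers. With t10,c12-CLA against DMSO the corresponding values were 0.30, -0.04, -0.095 and 0.29.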
